A study of Mus musculus with 35 samples.

Results

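Integrins are the receptors with which cells hold the extracellular matrix and one another, and laminins are the matrix proteins to which many of them bind. The array carried 78 probes for 35 such genes among 41174 gene probes, 58 probes for 25 integrin genes and 20 probes for 10 laminin genes. The members were every probe whose gene name was Itga, Itgb, Lama, Lamb or Lamc followed by its number or letter, whatever its level. By role they were 5 laminin α chains, 2 β chains and 3 γ chains, 3 integrin α chains of laminin receptors, 6 of receptors for fibronectin and other ligands with an RGD motif, 4 of collagen receptors, 4 of leukocytes, and 8 integrin β chains. The laminin β1 chain was listed as Lamb1-1, a name outside that choice, and its values are given beside the members. Of the 78 probes, 48 probes of 29 genes were bright enough to test among clones and ES cells, and 51 probes of 30 genes once the source cells were included; 5 probes were above background on no array.

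RNA was labelled with Cy3 and hybridised to 1 array per sample, 35 arrays in all. The clones came from 3 cell sources of 6-week-old mice that carry a Nanog-GFP-IRES-Puro reporter: PαS cells, which are CD45- Ter119- PDGFRα+ Sca-1+ bone marrow mesenchymal stem cells, OP cells, which are CD45- Ter119- PDGFRα- Sca-1- osteo-progenitors of the same marrow, and tail tip fibroblasts (TTF). Retroviruses carried Oct3/4, Sox2, Klf4 and c-Myc (4F) or the same set without c-Myc (3F), together with DsRed. There were 5 clones in each of 6 groups (named by factors and source, such as 4F-PαS-iPS or 3F-OP-iPS), all picked as GFP+/DsRed- and kept on mitomycin C-treated SNL feeder cells, with 2 ES lines (EB-3 and RF8) and 1 array of each source for comparison. Whether clones of a group arose from separate cells was not stated, so p-values measure the spread between these arrays. A level below is the log2 of the array's signal relative to that array's 75th percentile, so 0 is the 75th percentile and each unit is a 2-fold step. A probe was counted as above background where the scanner software marked its signal so. A fold given as "at least" sets the brighter group's mean against the dimmer group's mean, in which each array counts at its own value or at its floor, the lowest signal of any probe above background there, whichever is higher. Probes bind with different strength, so levels are compared between samples and not between genes.

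The labels were checked before the results. Of 6 pluripotency genes (Pou5f1, Nanog, Zfp42, Esrrb, Utf1 and Fbxo15), all 6 were above background on both ES arrays and 4 on every clone. Nanog and Esrrb were not above background in 3 of the clones made with 4F. These were TTF-derived clone #1 (Nanog at -6.06) and OP-derived clones #1 (-6.13) and #3 (-8.24), against a median of 1.62 over all clones, although every clone was chosen by its Nanog reporter. In a further clone, 4F-OP-iPS #2, Nanog was measured at -3.30. Member results are therefore given with these 4 clones and, where it mattered, without them. Of the sorting genes on the source arrays, Ly6a was higher on the PαS than on the OP array, though far above background on both, and Pdgfra was not. The paper expanded sorted cells in culture before transduction and does not state at which stage the array RNA was taken. Pdgfra was at 0.98 on the PαS array and 1.58 on the OP array, and Ly6a, which encodes Sca-1, at 5.58 and 3.54. Ptprc, which encodes the leukocyte antigen CD45, was at 4.14 on the TTF array.

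A laminin is a trimer of 1 α, 1 β and 1 γ chain, and an integrin is a pair of 1 α and 1 β chain whose combination sets the ligand. Laminin-111 (Lama1, Lamb1, Lamc1) and laminin-511 (Lama5, Lamb1, Lamc1) are the laminins of the early embryo's basement membranes, and extraembryonic endoderm secretes the former in quantity. Mouse ES cells hold laminin mainly through integrin α6β1 and fibronectin and vitronectin through α5β1 and αV integrins, while α11β1 is a collagen receptor of mesenchymal cells and α6β4 anchors epithelial cells to laminin-332, to which Lama3 and Lamb3 contribute chains.

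The sequences of 5 probes behind the results, each of 60 bases, are shown so that each signal can be tied to a stretch of transcript. All were placed by the array's own annotation on mouse build mm7, and each spans more than 60 bases there, that is, it crosses at least 1 intron and reads spliced exons. Lama1 lies at chr17:66089045-66090007 (+ strand), Lamb1-1 at chr12:29168364-29169711 (+), Lamb3 at chr1:192893546-192896077 (+), Itgb6 at chr2:60531124-60535739 (- strand) and Itga2b at chr11:102567178-102567386 (-).
Lama1 probe: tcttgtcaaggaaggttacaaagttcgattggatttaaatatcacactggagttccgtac
Lamb1-1 probe: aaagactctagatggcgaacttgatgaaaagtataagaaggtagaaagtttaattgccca
Lamb3 probe: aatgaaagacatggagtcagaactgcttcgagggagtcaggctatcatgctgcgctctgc
Itgb6 probe: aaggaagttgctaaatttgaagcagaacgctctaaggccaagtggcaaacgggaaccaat
Itga2b probe: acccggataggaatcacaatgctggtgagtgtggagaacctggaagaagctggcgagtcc

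Promoters are shown for the β1 chain, which moved with Lama1, and for the α5 chain, which did not. They are the 250 bases before the RefSeq start on build GRCm38.p6, Lamb1 at chr12:31265043-31265292 (+ strand) and Lama5 at chr2:180225860-180226109 (- strand), with GC boxes (GGGCGG on either strand) in capitals. Lamb1 held 2 and Lama5 4 of these boxes.
Lamb1 promoter: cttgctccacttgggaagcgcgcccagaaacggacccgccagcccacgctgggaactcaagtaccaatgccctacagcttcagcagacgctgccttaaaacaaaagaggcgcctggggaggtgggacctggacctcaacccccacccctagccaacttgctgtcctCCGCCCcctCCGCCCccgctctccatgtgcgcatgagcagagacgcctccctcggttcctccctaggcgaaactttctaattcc
Lama5 promoter: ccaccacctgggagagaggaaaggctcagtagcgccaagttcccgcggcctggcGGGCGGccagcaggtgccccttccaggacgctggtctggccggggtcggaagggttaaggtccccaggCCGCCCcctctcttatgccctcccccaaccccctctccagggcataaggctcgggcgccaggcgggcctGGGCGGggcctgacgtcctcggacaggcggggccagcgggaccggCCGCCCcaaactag
Of the 23 promoters matched (22 of the 35 members, and Lamb1), 8 held a GC box, against 32.7% of all 32851 promoters of that length. None of the 23 held TATAAA (12.4% of all promoters) or CACGTG (6.0%).

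Within the clones, members ranged from steady to highly variable. The median SD of a member over the 30 clones was 0.955 (29 genes by their brightest probe), against 0.470 for all 27622 tested probes. The steadiest were the receptor chains Itgav at an SD of 0.255, Itgb1 at 0.379 and Itgb5 at 0.398, then the leukocyte α chain Itgal at 0.417 and Itga6 at 0.437. The most variable were the collagen receptor chain Itga11 (SD 2.89), the hemidesmosome chain Itgb4 (1.80), the laminin-332 chain Lama3 (1.77) and Itgb3 (1.68).

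Most member genes that differed between clones and ES cells were higher in clones. Of all probes, 36.2% were called between clones and ES cells (adjusted p under 0.05 by limma with Benjamini-Hochberg adjustment over all tested probes, and at least 2-fold), 17.2% higher in clones and 19.0% lower. Of the 48 member probes 28 were called (58.3%), 22 higher and 6 lower. Without EB-3 18 were called (13 higher, 5 lower), against 29.1% of all probes, and under normexp, another way to correct background, 13 (12 higher, 1 lower), against 18.7%. The 28 belong to 19 genes, 15 with a probe higher and 5 with a probe lower, Itgb3 being in both. The median member difference was 1.34, against -0.11 over all probes. The 30 clones were scanned in 1 session and each ES line in another, so the difference cannot be told apart from scan session.

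All chains of laminin-111 were higher in clones than in ES cells. Lama1 levels in the 30 clones ran from 1.35 to 5.67 (median 4.04), against -0.035 and -1.94 in EB-3 and RF8. Every clone was above both ES lines, and the fitted difference was 4.96 ± 0.61 (SE, adjusted p = 2.72e-07), a 31.2-fold higher signal. It was 5.92 without EB-3 and 4.01 without RF8, and 3.31 on a second probe. Lamb1-1 ran from 2.68 to 6.06 (median 4.62) in clones and was 1.51 and 1.90 in the ES lines, again without overlap, a difference of 2.81 ± 0.48 (SE, adjusted p = 2.45e-05). Lamc1, the γ1 chain shared by most laminins, ran from 4.62 to 8.17 (median 6.69) against 5.15 and 4.06. Here the lowest clones reached EB-3, and the difference of 2.08 ± 0.50 (SE, adjusted p = 0.000990) was 1.54 (adjusted p = 0.0700) with RF8 left out.

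**Figure D1:**
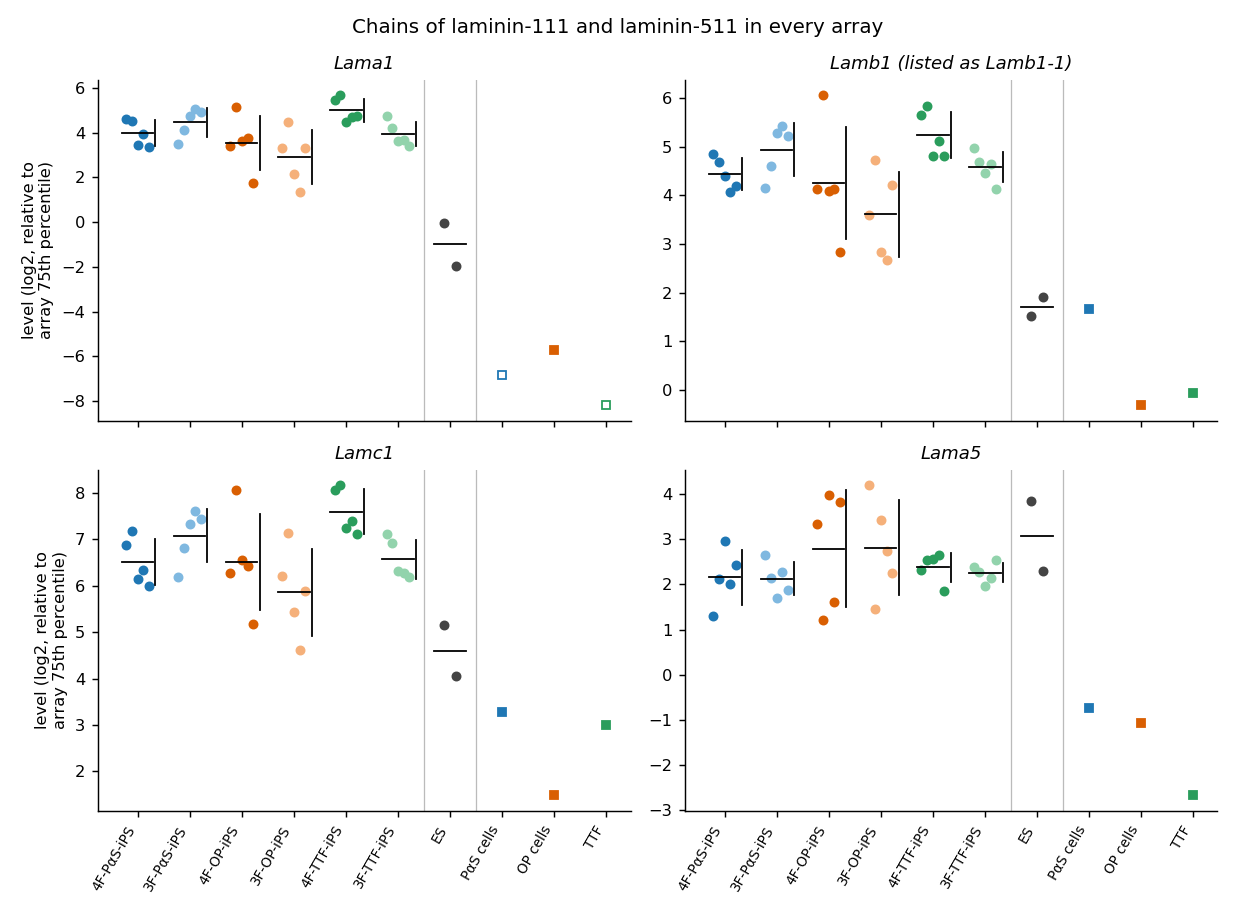
Levels of laminin chain genes on each array, on the log2 scale relative to the array's 75th percentile. Points are clones (5 per group), the 2 ES lines and single source arrays as squares; bars are group means, vertical lines SDs, and open symbols are values not well above background. Lama1 sits between 1.35 and 5.67 in every clone and at -0.035 and -1.94 in the ES lines.

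Lama1 varied from clone to clone, and the groups overlapped. It was 5.44, 5.67, 4.49, 4.69 and 4.77 in the 4F-TTF-iPS clones #1 to #5 and 4.74, 4.19, 3.64, 3.67 and 3.38 in the 3F-TTF-iPS clones. In OP-derived clones it was 3.42, 5.15, 3.61, 3.76 and 1.76 with 4F and 3.31, 4.48, 2.14, 1.35 and 3.32 with 3F, and the 3 lowest clones of all were OP-derived. No comparison of sources or of factor number called Lama1: OP-iPS minus TTF-iPS was -1.24 ± 0.37 (SE, adjusted p = 0.253) and 3F minus 4F in TTF-iPS -1.09 ± 0.53 (SE, adjusted p = 0.189). PαS-derived clones ran from 3.36 to 5.05 (median 4.33).

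The 3 chains rose and fell together from clone to clone. Over the 30 clones Pearson's r was 0.977 for Lama1 and Lamc1 (Spearman's rho 0.958), 0.959 for Lama1 and Lamb1-1 (rho 0.925) and 0.950 for Lamb1-1 and Lamc1 (rho 0.891), each with a permutation p of 1e-05, the smallest that 100000 permutations give, and an adjusted p of 1.67e-05 over 5 pairs. Leaving out the 4 clones low in Nanog gave 0.981, 0.964 and 0.943. Lama5 did not follow: its r with Lamc1 was -0.480 (rho -0.470; permutation p = 0.00723, adjusted p = 0.00904), -0.550 within PαS-iPS and -0.534 within OP-iPS, but 0.342 within TTF-iPS. Without the 2 clones farthest from the median it was -0.531, and within slides -0.621, but with clones centred on their group it was -0.498 with a permutation p of 0.0557. The integrin pair Itga6 and Itgb1 gave r = 0.293 (rho 0.0919; permutation p = 0.117, adjusted p = 0.117), 0.307 without the 2 farthest clones, and 0.748, 0.236 and 0.0914 within PαS-iPS, OP-iPS and TTF-iPS. All these values came from the same arrays and share their scaling.

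**Figure D2:**
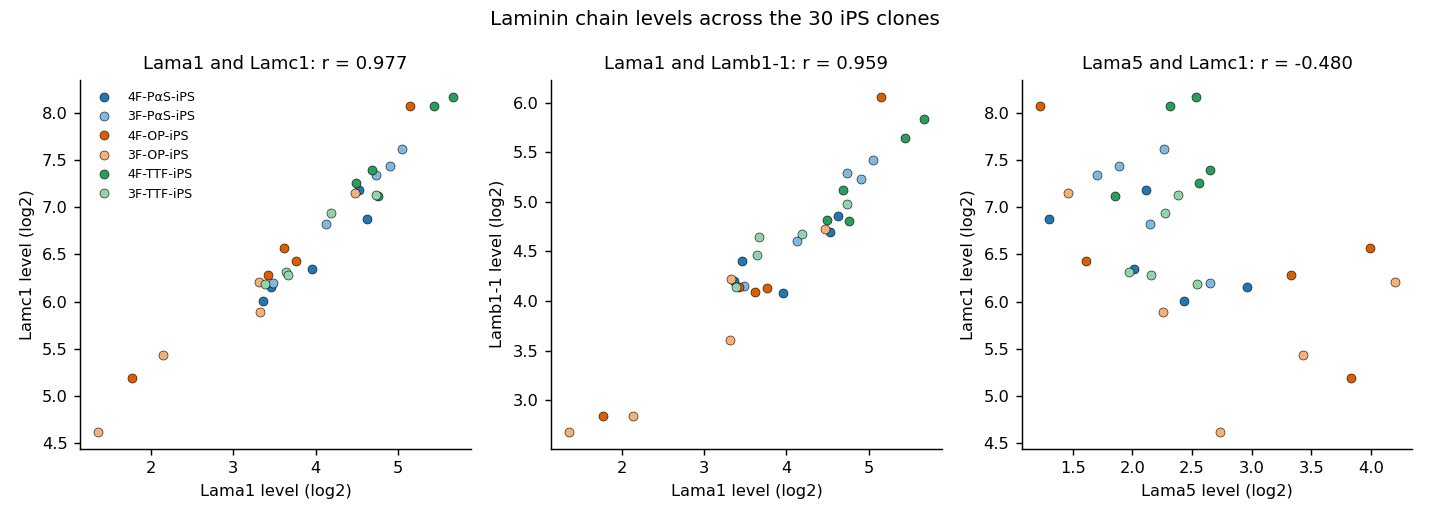
Pairs of laminin chain genes across the 30 clones, each axis a log2 level relative to the array's 75th percentile, with a point per clone coloured by group. Lama1 falls on a line with Lamc1 (r = 0.977) and with Lamb1-1 (r = 0.959), and Lama5 and Lamc1 form a loose falling band (r = -0.480).

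Markers of extraembryonic endoderm were on the same side as Lama1. The mean level of 16 marker genes ran from -0.13 to 2.56 over the clones and was -4.00 and -2.53 in the ES lines. Of the 15 tested, 14 were higher in clones, against 17.2% of all probes (median difference 4.62, against -0.11 for all probes). Among them were Srgn (9.22), Sox17 (6.79) and Gata6 (5.95). Ttr, not above background on any clone or ES array, was not tested but is in the mean. Across clones this mean correlated with Lama1 at r = 0.811 (rho 0.805; permutation p = 1e-05, adjusted p = 4e-05 over 4 marker relations picked after the values were seen), with 0.779 after leaving out the 2 farthest clones, 0.840 without the 4 clones low in Nanog, and 0.806, 0.765 and 0.821 within PαS-iPS, OP-iPS and TTF-iPS. Within slides it was 0.816. The part of such cells in the laminin levels was not tested. In these bulk RNA samples more cells of a type and more RNA per cell cannot be told apart.

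Some other genes of basement membranes were higher too. Of 18 measured partners and laminin receptors, 8 were higher in clones than in ES cells, none was lower and the other 10 were not called, where 17.2% of all probes were higher and 19.0% lower. Among the 8, the collagen IV genes Col4a2 (6.47) and Col4a1 (5.77) and the matrix glycoprotein Sparc (4.14) were furthest apart.

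Other laminin chains differed from ES cells one by one. Lamb2, the β chain of neuromuscular and vascular laminins, ran from 2.24 to 4.55 (median 3.30) in clones against 1.45 and 0.39, without overlap, a difference of 2.40 ± 0.34 (SE, adjusted p = 2.30e-06) that was 2.93 without EB-3 and 1.87 without RF8. Lama4, the α chain of vessel and mesenchyme laminins, ran from -1.86 to 2.83 (median -0.22) against -4.83 and -1.53: the clones lay mostly above RF8 and all above EB-3. Its difference was 3.28 ± 0.84 (SE, adjusted p = 0.00189), and 1.62 (adjusted p = 0.257) without EB-3. Lama5 overlapped, ranging from 1.22 to 4.20 (median 2.29) in clones and 3.85 and 2.30 in ES cells, with a difference of -0.65 ± 0.54 (SE, adjusted p = 0.323). Lama3 and Lamb3 of laminin-332 were not called, with differences of 2.22 (adjusted p = 0.125) and 1.36 (0.132). Lamc3 was above background on both ES arrays (-5.91 and -4.41) and on 4 of 30 clones (from -8.24 to -5.04, median -6.45). The probe entered the test through the ES arrays alone. With the clones at background set to their floor the ES arrays were at least 1.56-fold higher, a value given with no p since that filter favours it.

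Among laminin receptors, Itga6, the main laminin-binding α chain of ES cells, was not called, ranging from 2.53 to 4.36 (median 3.67) in clones and 4.05 and 3.27 in ES cells (-0.0065 ± 0.31 SE, adjusted p = 0.988). Its partner Itgb1 ran from 0.90 to 3.09 (median 1.80) against 0.68 and 2.07, overlapping, at 0.46 ± 0.26 (SE, adjusted p = 0.139) on its brightest probe and 1.18 on another, which was called but fell to 0.36 (adjusted p = 0.440) without EB-3 and 0.90 under normexp. Itga7, a laminin receptor chain of muscle, ran from -2.40 to -0.18 (median -1.05) against -3.97 and -2.43, a difference of 2.08 ± 0.31 (SE, adjusted p = 5.15e-06) that was 1.31 without EB-3 and 2.86 without RF8, called in both. Itga3, a laminin receptor chain of epithelia, ran from 0.092 to 3.33 (median 1.02) against -0.40 and 0.062. Its difference of 1.32 ± 0.46 (SE, adjusted p = 0.0189) lost the call without EB-3 (1.09, adjusted p = 0.2) or without RF8 (1.55, adjusted p = 0.0552).

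Of the chains of receptors for fibronectin, vitronectin and fibrinogen, Itgb5, Itga5 and Itga2b were called higher in clones by their brightest probes. Itgb3 and Itgb6 also had calls on their brightest probes, given with their limits in the next paragraph. Itgb5, partner of αV, ran from 4.03 to 5.77 (median 4.85) in clones against 3.43 and 3.34, with every clone above both lines (1.54 ± 0.25 SE, adjusted p = 1.34e-05). Itgav itself ran from -0.0033 to 0.83 (median 0.39) against -1.14 and 0.042, and its difference of 0.98 ± 0.22 (SE, adjusted p = 0.000507) fell just under 2-fold while a second probe passed. Itga5, the fibronectin receptor chain, was 0.30 and -1.83 in the ES lines, which themselves lay further apart than most clones (from -0.45 to 1.495, median 0.33). Its difference of 1.11 ± 0.39 (SE, adjusted p = 0.0199) was 0.042 without RF8 and 0.89 (adjusted p = 0.0506) under normexp. Itga2b, the α chain of the platelet fibrinogen receptor, ran from -4.55 to -0.77 (median -2.80) against -5.09 and -4.61, without overlap (2.18 ± 0.48 SE, adjusted p = 0.000415), and was 0.81 (adjusted p = 0.0683) under normexp.

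Itga9 was lower in clones than in ES cells, and Itgb6 and Itga11 were higher. Itgb6, an epithelial β chain that pairs with αV, was not above background in either ES line and was above it in 28 of 30 clones, at least 9.77-fold higher in the clones. It entered the test through clone groups, which favours that direction, so no p is given for it. Under normexp, which here adds 50 to every signal and so shrinks differences of dim probes, its difference was 0.90 (adjusted p = 0.104). That of a second probe was 0.66 (adjusted p = 0.215), and neither was called. Itga9, whose receptor binds tenascin and VCAM1, was at 2.55 and -0.80 in EB-3 and RF8 and ran from -6.76 to -2.30 (median -4.06) in the clones, all of them below both lines, a difference of -5.38 ± 0.68 (SE, adjusted p = 4.23e-07) that was -3.70 without EB-3 and -7.06 without RF8. Itga11 ran from -6.93 to 4.78 (median 0.03) in clones against -5.99 and -3.41, a difference of 4.10 ± 1.41 (SE, adjusted p = 0.0164) that was 2.81 (adjusted p = 0.276) without EB-3 and lost the call with slide as a random block (adjusted p = 0.0529). Itgb3 was 2.41 (adjusted p = 0.0192) on its brightest probe and -1.10 on another, so no direction is given for it; without EB-3 the first was 2.48 (adjusted p = 0.109) and without RF8 2.33 (adjusted p = 0.116).

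**Figure D3:**
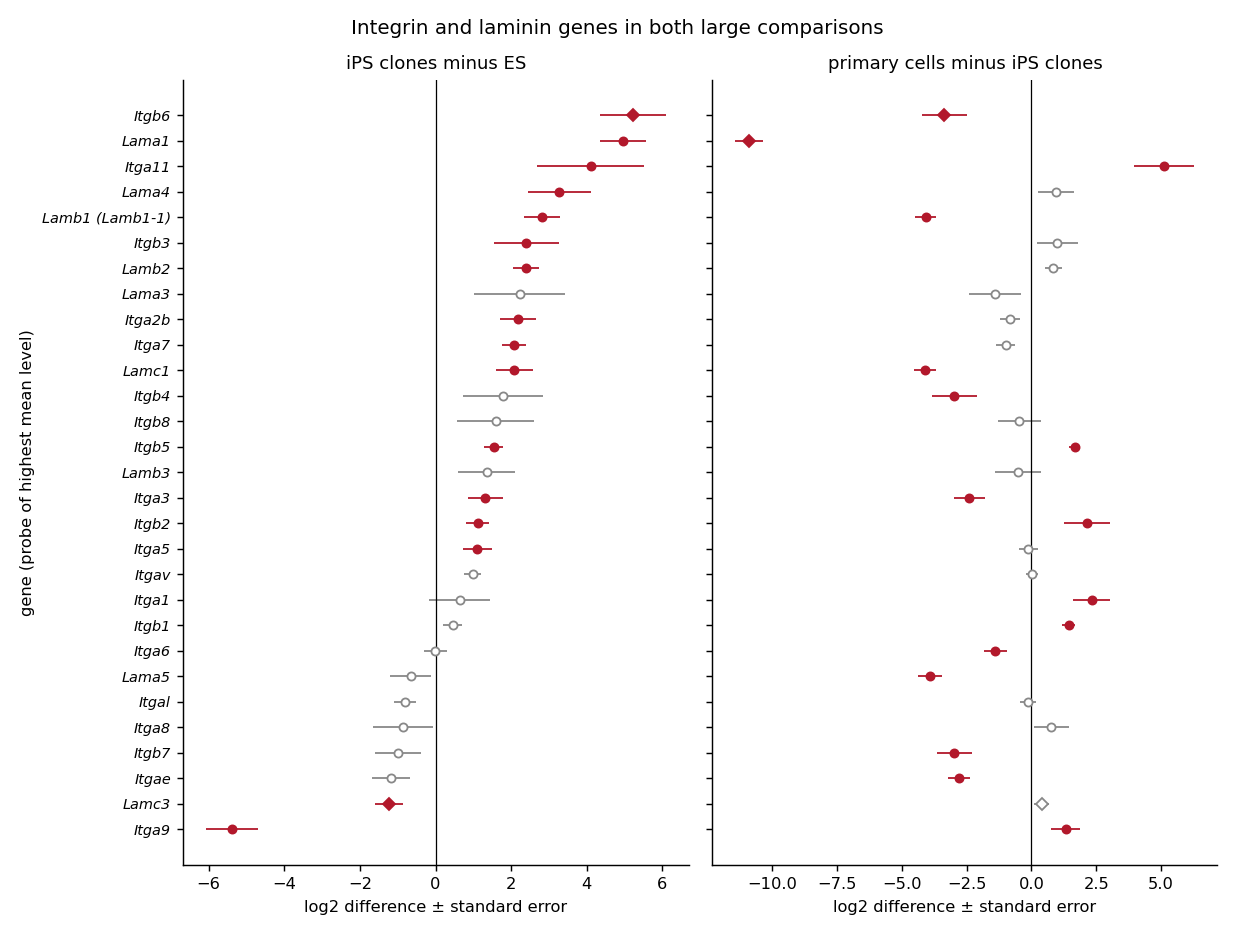
Fitted log2 differences (points) with SE (lines) for member genes and Lamb1-1, each by its brightest probe, for clones minus ES cells and for source (primary) cells minus clones; filled red points are called and open grey points are not. Diamonds mark genes above background on under 50% of the arrays of either group, whose differences are fitted against background and give no size. Lama1 lies at 4.96 in the first comparison, and in the second it is such a diamond on the left.

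The machinery around integrins was also compared. Against 17.2% of all probes higher and 19.0% lower, 11 of 23 genes of the adhesion complex inside the cell were higher in clones than in ES cells and 1 was lower, led by Parva, an actin-binding adaptor (3.23), with Tns3 as the lower one (-1.82). Of 19 ligands other than laminins, 9 were higher and 1 lower: Vcam1 (6.17) and Postn (5.12) were higher, and Cdh1, E-cadherin, was lower (-1.34). Of 17 fibroblast markers tested 12 were higher in clones (median 4.14), and the mean of all 18 ran from -0.37 to 3.28 in clones and was -4.21 in EB-3 and 0.80 in RF8. The clones were kept on feeder fibroblasts, whose part in these levels was not tested.

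Itga11, the collagen receptor chain of mesenchymal cells, was higher without c-Myc in OP- and TTF-derived clones, and the call in each was lost without the clones low in Nanog. In OP-derived clones Itga11 was -6.93, -3.99, -6.25, -2.44 and -0.034 with 4F (#1 to #5) and -1.75, 4.78, 1.19, 2.83 and 3.93 with 3F. Only 3F-OP-iPS #1 fell into the range of the 4F clones, and 4F-OP-iPS #1 and #3 were not above background. The difference was 6.12 ± 1.22 (SE, adjusted p = 0.00410), or 4.35 (adjusted p = 0.0830) without the clones in which Nanog was not above background and 3.43 (adjusted p = 0.350) without all 4 clones low in Nanog. With slide as a random block it was 6.48 (adjusted p = 0.0576).

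In TTF-derived clones Itga11 was -5.55, -3.47, -0.18, -3.17 and -1.30 with 4F and 1.41, 0.70, 1.27, 1.16 and 1.75 with 3F, and the groups did not overlap. The difference of 3.99 ± 1.22 (SE, adjusted p = 0.0369) was 3.29 (adjusted p = 0.0813) without the clones in which Nanog was not above background, and lost the call when 4F-TTF-iPS #1, #2 or #4 or any single 3F clone was left out (3.29 to 4.13, adjusted p 0.0566 to 0.123). In PαS-derived clones it was -1.33, -2.64, 0.83, -3.61 and 1.36 with 4F and 2.12, 0.89, 0.094, -0.37 and 0.72 with 3F, overlapping and not called (1.77 ± 1.22 SE, adjusted p = 0.465). The 3F and 4F clones of a source lay on different slides, so slide and factor number cannot be told apart within a source.

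Other integrin chains were called in OP-derived clones with 3F. Itga8, an RGD-binding chain of mesenchyme and kidney, was -5.03, -4.16, -4.71, -2.93 and -3.48 with 4F and -3.10, 0.74, -3.05, -0.36 and 0.29 with 3F (2.97 ± 0.69 SE, adjusted p = 0.0109; 2.11, adjusted p = 0.399 without the 4 clones low in Nanog). Clones #2, #4 and #5 with 3F stood above all others, and #1 and #3 overlapped the 4F clones. Itga2b was -4.38, -3.62, -2.95, -2.89 and -2.25 with 4F and -1.58, -1.78, -2.01, -0.77 and -1.42 with 3F, without overlap (1.71 ± 0.41 SE, adjusted p = 0.0132). It lost the call without 4F-OP-iPS #1 (1.42, adjusted p = 0.0584), without the 4 clones low in Nanog (1.06, adjusted p = 0.471) and under normexp (1.07, adjusted p = 0.0562).

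The remaining chain calls in OP-derived clones were weaker. Itga1, a collagen receptor chain, differed by 2.34 ± 0.70 (SE, adjusted p = 0.0375) on its brightest probe and by -0.13 and 0.73 on the other 2 tested, and lost its call without each of 6 single clones, 4F #1, #2 and #3 and 3F #2, #4 and #5 (1.82 to 2.31, adjusted p 0.0754 to 0.142). Without the 4 clones low in Nanog it was 0.43 (adjusted p = 0.884), and under normexp 0.62 (adjusted p = 0.358). Itgb7, a leukocyte β chain, was lower with 3F: 3.35, -0.35, 3.61, 2.09 and 1.84 with 4F against 0.70, 0.19, 0.51, 0.083 and 0.42 (-1.73 ± 0.53 SE, adjusted p = 0.0426), where 4F-OP-iPS #2 overlapped the 3F clones. It was -0.81 (adjusted p = 0.472) without the clones in which Nanog was not above background and -1.59 (adjusted p = 0.241) without all 4 clones low in Nanog. That call was lost without OP-derived clones #1 or #3 with 4F, without #2, #3, #4 or #5 with 3F, and without 3F-PαS-iPS #5 (-1.76 to -1.35, adjusted p 0.05004 to 0.148), and under normexp (-1.69, adjusted p = 0.0638).

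In all, 6 of 48 member probes (12.5%) were called between 3F- and 4F-OP-iPS, 5 higher and 1 lower, against 4.5% of all probes (3.93% higher, 0.576% lower). Without the 3 clones in which Nanog was not above background, or without the 4 clones low in Nanog, none was called by limma (5 probes at an unadjusted p under 0.05 in each case), while the share of all probes called fell to 0.608% and 0.21%. With slide as a random block 1 of the 6 calls was left, that of Itga2b (adjusted p = 0.0422), and 0.608% of all probes were called; Itga8 had an adjusted p of 0.122, Itga1 of 0.12 and Itgb7 of 0.212. The median member difference was -0.02.

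In TTF-derived clones 5 of 48 (10.4%) were called, 4 higher and 1 lower with 3F, against 5.77% of all probes (3.96% higher, 1.81% lower). Besides Itga11 these were Itga2b, Itgb7, Lamc3 and 1 probe of Itgal, the α chain of LFA-1. Without the 3 clones in which Nanog was not above background 2 were called, 1 higher and 1 lower, against 3.59% of all probes. Without all 4 clones low in Nanog 4 were called, 3 higher and 1 lower, against 4.96%. Itga2b was -3.17, -3.67, -2.83, -3.08 and -3.71 with 4F and -2.41, -2.01, -1.97, -2.07 and -1.22 with 3F (1.36 ± 0.41 SE, adjusted p = 0.0357), with no overlap, and its call was lost in 8 of 10 omissions of a single TTF-derived clone (1.18 to 1.41, adjusted p 0.0538 to 0.102), all but 4F #3 and 3F #1, under normexp (0.85, adjusted p = 0.117) and without the clones in which Nanog was not above background (adjusted p = 0.0554). Itgb7 was 2.36, 2.59, 2.25, 1.05 and 2.23 with 4F and -0.086, -0.15, 0.37, 0.36 and 0.65 with 3F (-1.87 ± 0.53 SE, adjusted p = 0.0257), with no overlap, and held without the clones low in Nanog (-1.80, adjusted p = 0.0124) but not without 4F #1, 4F #2, 3F #2 or 3F #4 (adjusted p 0.0503 to 0.0674).

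The Itgal probe differed by 2.43 ± 0.68 (SE, adjusted p = 0.0245) and the gene's brightest probe by -0.11, which was not called. The first lost its call without 4F #1 or #2 or 3F #4 or #5, under normexp (0.63, adjusted p = 0.232) and without the clones in which Nanog was not above background (adjusted p = 0.0884). Lamc3 was above background in none of the 4F-TTF-iPS clones and in 3 of 5 with 3F, at least 1.21-fold higher there (adjusted p = 0.0411), with the call lost in 8 of 10 omissions of a single TTF-derived clone, all but 4F #1 and 3F #2, under normexp (0.17, adjusted p = 0.918), under quantile normalization (0.63, adjusted p = 0.188) and with no filter on dim probes (adjusted p = 0.0517). With slide as a random block no member was called by limma in TTF-derived clones, where 0.0253% of all probes were, with 4 at an unadjusted p under 0.05 (Itga11 adjusted p = 0.472, Itgb7 0.343).

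**Figure D4:**
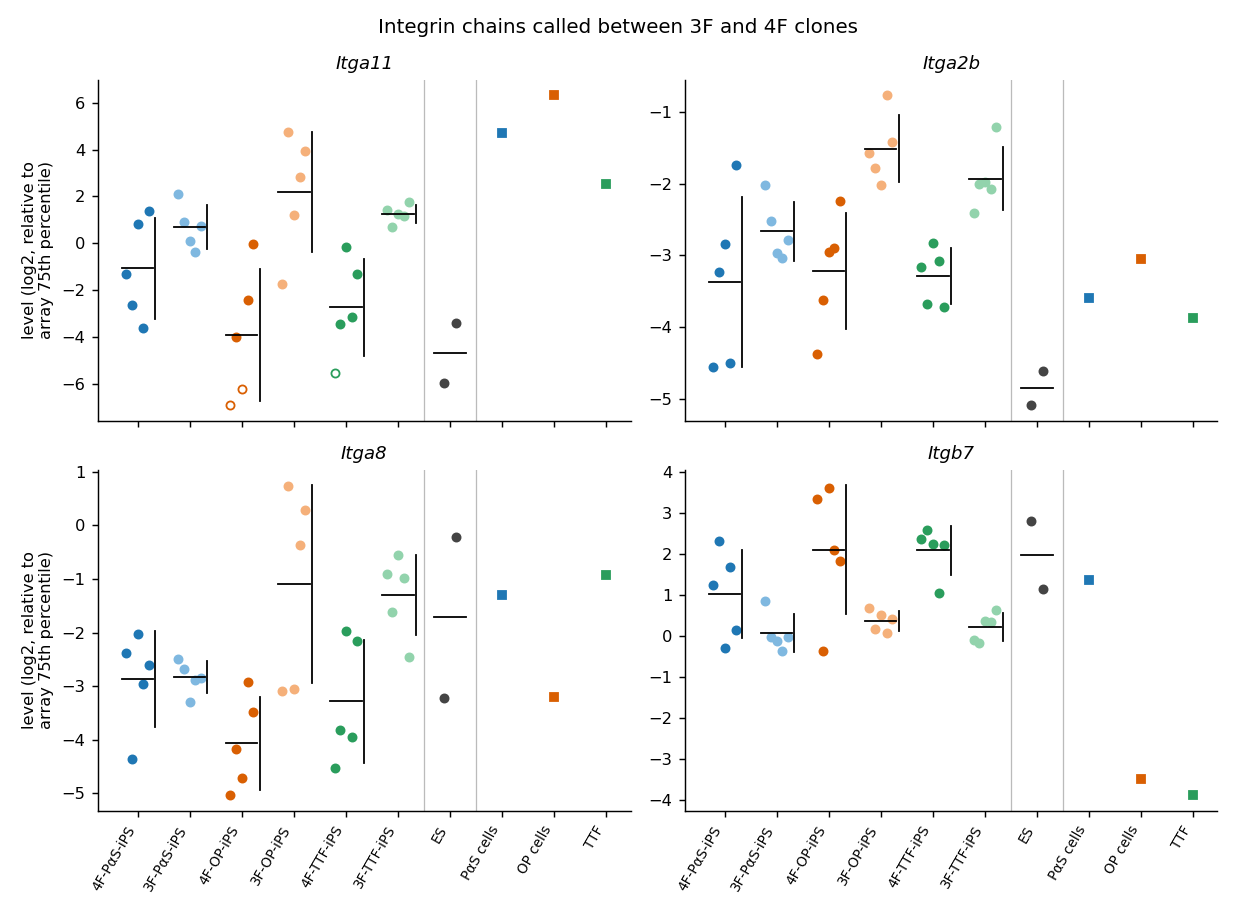
Levels of Itga11, Itga2b, Itga8 and Itgb7 on each array, on the log2 scale relative to the array's 75th percentile. Round points are clones (5 per group) and the 2 ES lines, squares single source arrays, bars means and vertical lines SDs of the clone groups; open symbols are values not well above background. Among the clones Itga11 is highest in 3F-OP-iPS #2, at 4.78, and not above background in 4F-OP-iPS #1 and #3 and 4F-TTF-iPS #1.

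In PαS-derived clones none of the 48 probes was called by limma (0.0181% of all probes were), with 11 at an unadjusted p under 0.05 and a median difference of 0.42. The difference between sources in the effect of factor number was tested directly and called no member, with 10 probes at an unadjusted p under 0.05 for PαS-iPS against OP-iPS, 16 for PαS-iPS against TTF-iPS and 0 for OP-iPS against TTF-iPS; of all probes 0.691%, 0.615% and 0.0% were called. For Itga11 the effect in PαS-iPS minus that in OP-iPS was -4.35 ± 1.73 (SE, adjusted p = 0.171).

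Fibroblast markers varied widely between clones, and their levels are given beside Itga11. Their mean ran from -0.37 to 2.08 in 4F-OP-iPS and from 0.73 to 3.28 in 3F-OP-iPS, from 0.29 to 2.46 and from 0.99 to 2.35 in the TTF-derived groups, and from 0.53 to 1.71 and from 1.38 to 1.66 in the PαS-derived ones. Of 17 markers 3 were higher in 3F- than 4F-OP-iPS, namely Acta2 (3.24), Tagln (2.52) and Col5a1 (1.63), against 3.93% of all probes higher. There 8 of the 17 had an unadjusted p under 0.05 by limma, and the median difference was 1.44. In TTF- and in PαS-derived clones limma called none of the 17, with 2 and 1 at an unadjusted p under 0.05 and medians of 0.48 and 0.46. Across the 27 clones with Itga11 above background its level correlated with that mean at r = 0.678 (rho 0.588; permutation p = 0.00014, adjusted p = 0.00028 over the 4 marker relations), 0.597 without the 2 farthest clones and 0.641 without the clones low in Nanog; it was 0.797 within PαS-iPS, 0.780 within OP-iPS and 0.406 within TTF-iPS. The fourth relation, Lama4 with the same mean, gave r = -0.331 (rho -0.212; permutation p = 0.0729, adjusted p = 0.0729), -0.0615 without the 2 farthest clones, -0.0982 without the clones low in Nanog, -0.424 within slides, and 0.190, -0.546 and -0.240 within PαS-iPS, OP-iPS and TTF-iPS. The part of fibroblasts, feeder or other, in the Itga11 difference was not tested.

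The level of Itgb4, set here beside keratinocyte markers, differed widely between clones. It was 6.03, -0.021, 6.44, 1.66 and 5.86 in 4F-OP-iPS and 5.98, 1.29, 4.14, 2.46 and 1.71 in 3F-OP-iPS, where 4F #1, #3 and #5 and 3F #1 and #3 stood far above the others. In 4F-TTF-iPS it was 4.12, 4.31, 4.26, 4.30 and 2.42 and in 3F-TTF-iPS 1.12, 1.53, 1.44, 1.57 and 1.93, without overlap though not called (-2.36 ± 0.91 SE, adjusted p = 0.0956). PαS-derived clones were all low (from 0.82 to 2.81, median 1.41). Over the 30 clones r with the mean of the keratinocyte markers was 0.620 (rho 0.702; permutation p = 0.00027, adjusted p = 0.00036), 0.738 within OP-iPS, 0.889 within TTF-iPS and 0.256 within PαS-iPS. It was 0.708 without the 2 farthest clones, 0.700 without the clones low in Nanog and 0.602 within slides. The mean of these 9 markers ran from -4.37 to -1.61 in PαS-iPS, from -3.33 to -0.97 in OP-iPS and from -2.92 to -0.73 in TTF-iPS, with Dsg3 not above background in any clone. The part of keratinocytes in the Itgb4 levels was not tested.

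The laminin-332 chain Lamb3 was called lower in PαS-derived clones than in those of the other sources, and several alternatives ended the calls. It ran from -4.66 to -2.42 (median -3.99) in PαS-iPS, from -4.18 to 0.45 (median -1.93) in OP-iPS and from -3.31 to -0.34 (median -2.20) in TTF-iPS. The ranges overlapped, with 4F-OP-iPS #2 and #4 as low as the PαS clones. The differences were -1.86 ± 0.46 (SE, adjusted p = 0.0257) from OP-iPS and -1.78 ± 0.46 (SE, adjusted p = 0.0499) from TTF-iPS. The first call was lost without 3F-PαS-iPS #3, 4F-OP-iPS #1 or #3 or 3F-OP-iPS #1 (adjusted p 0.0509 to 0.0660), and both were lost without the 4 clones low in Nanog (-1.78, adjusted p = 0.0565 and -1.68, adjusted p = 0.0528). On the 3 slides that held both, PαS-iPS minus OP-iPS was -2.18, -1.08 and -2.72, and with slide as a term -2.14 (adjusted p = 0.0862). On the 1 slide with both PαS-iPS and TTF-iPS the difference was -0.014. Of 35 omissions of a single array, 21 lost the second call, each of them the omission of a clone (adjusted p 0.0504 to 0.102). Normexp gave -0.82 (adjusted p = 0.195) and -0.72 (adjusted p = 0.443), and the second was also lost with slide as a random block (-1.54, adjusted p = 0.323), quantile normalization (adjusted p = 0.0694) and the authors' normalised table (adjusted p = 0.0505).

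Integrin β3, the partner of αV and of αIIb, was higher in PαS-iPS than in TTF-iPS on its brightest probe. Itgb3 ran from -1.61 to 3.44 (median 1.83) in PαS-iPS and from -3.22 to 2.04 (median -0.33) in TTF-iPS, overlapping, a difference of 2.07 ± 0.52 (SE, adjusted p = 0.0435) that a second probe gave as 0.18. It was 1.87 (adjusted p = 0.0637) without the clones low in Nanog, and 16 of 35 single omissions lost the call, as did normexp (1.81, adjusted p = 0.0723) and slide as a random block (adjusted p = 0.172). Lamc3 was called too (adjusted p = 0.0299), but it was above background in 0 of 10 PαS-iPS and 3 of 10 TTF-iPS, so no size or direction is given. In all 1 of 48 member probes (2.08%) was called between PαS-iPS and OP-iPS, against 1.6% of all probes, 3 (6.25%) between PαS-iPS and TTF-iPS, against 0.496%, and 0 by limma between OP-iPS and TTF-iPS, against 0.0217% (6 at an unadjusted p under 0.05).

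The source cells carried far less laminin-111 message than the clones. Lama1 was -6.83, -5.72 and -8.18 on the PαS, OP and TTF arrays, above background on the OP array alone, and ran from 1.35 to 5.67 (median 4.04) in clones, at least 1318-fold above the source arrays with those at background set to their floor (adjusted p = 2.93e-16). A second Lama1 probe was above background on no source array and at least 60.3-fold higher in clones. Lamc1 was 3.28, 1.49 and 2.99 (-4.10 ± 0.43 SE, adjusted p = 4.21e-09), Lamb1-1 was 1.66, -0.31 and -0.054 (-4.08 ± 0.42 SE, adjusted p = 3.35e-09) and Lama5 was -0.74, -1.07 and -2.66 (-3.92 ± 0.47 SE, adjusted p = 4.68e-08), in each case below every clone. Lama2, the α chain of muscle and mesenchyme laminins, went the other way at -0.25, -4.80 and -3.24: it was above background on all 3 source arrays and on 10 of 30 clones (from -7.68 to -3.80, median -6.02), and it entered the test through the source arrays. It was at least 6.51-fold higher there with the clones at background set to their floor, a value given with no p since that filter favours it. These arrays were scanned apart from the clones, so source and session cannot be told apart. The 3 were fitted as 1 group although they are different cells. EB-3 shared their slide and session, with Lama1 at -0.035. Against EB-3, with no test, the PαS, OP and TTF arrays differed by -4.60, -4.92 and -6.52 in Lama5. In Lamc1 they differed by -1.87, -3.66 and -2.16, and in Lamb1-1 by 0.15, -1.83 and -1.57.

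Of all probes 39.1% were called between source cells and clones, 15.4% higher and 23.7% lower. Of 51 member probes 28 were called (54.9%), 9 higher and 19 lower in source cells. The median member difference was -0.47 against -0.14 for all probes. Of the 18 measured basement membrane partners 8 were lower in source cells, among them Col4a1 (-4.69), Bcam, a receptor for laminin α5 (-3.26), and Agrn (-2.58). Of 19 other ligands 8 were higher, with Thbs1 at 4.87, and 2 lower, with Cdh1 at -9.88.

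Of the collagen and vitronectin receptor chains, Itga11, Itga1, Itgb5 and Itgb1 were called higher in source cells by their brightest probes. Itga11 was 4.70, 6.33 and 2.53 on the PαS, OP and TTF arrays (5.12 ± 1.17 SE, adjusted p = 0.000458), with 3F-OP-iPS #2 reaching the PαS array. Itga1 was -2.50, -0.13 and -3.65 (2.33 ± 0.71 SE, adjusted p = 0.00593). It lost the call without the OP array (1.34, adjusted p = 0.164), fell under 2-fold with normexp (0.95) and was 0.31 (adjusted p = 0.647) on another probe. Itgb5 was 6.92, 6.80 and 6.03, above every clone (1.66 ± 0.22 SE, adjusted p = 2.12e-07), and Itgb1, the common partner of collagen, fibronectin and laminin receptors, was 3.90, 3.35 and 2.53 (1.43 ± 0.23 SE, adjusted p = 7.56e-06). A second Itgb1 probe gave 0.49 and was not called.

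Fitted as 1 group, the source cells were lower in Itgae, Itgb6, Itgb4, Itgb7 and Itga3, of which only Itgae was below every clone on each source array. Itgae, the α chain of an E-cadherin receptor, was -6.36, -4.75 and -5.11 and below every clone (-2.81 ± 0.42 SE, adjusted p = 2.35e-06). Itgb6 was -2.76, -8.51 and -8.67, above background on the PαS array alone, where it lay above the clone median of -3.22. With the other source arrays set to their floor the clones were at least 4.00-fold higher, again with no p, and the call was lost without the TTF array. Itgb4 was 0.68, 0.043 and -1.90 (-2.97 ± 0.87 SE, adjusted p = 0.00453; -2.22, adjusted p = 0.0707 without the TTF array) and Itgb7 1.37, -3.47 and -3.87 (-2.98 ± 0.67 SE, adjusted p = 0.000424), with the PαS array above the clone median of 0.58. Itga3 was 0.98, -0.21 and -4.49, and its difference of -2.39 ± 0.59 (SE, adjusted p = 0.000963) became -0.77 (adjusted p = 0.169) without the TTF array. Itga9, by contrast, was higher, at -3.17, -3.83 and -2.56 (1.32 ± 0.55 SE, adjusted p = 0.0421), and lost the call without the PαS array (1.31, adjusted p = 0.105), under normexp (0.15, adjusted p = 0.722) or without the TTF array (1.01, adjusted p = 0.207).

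**Figure D5:**
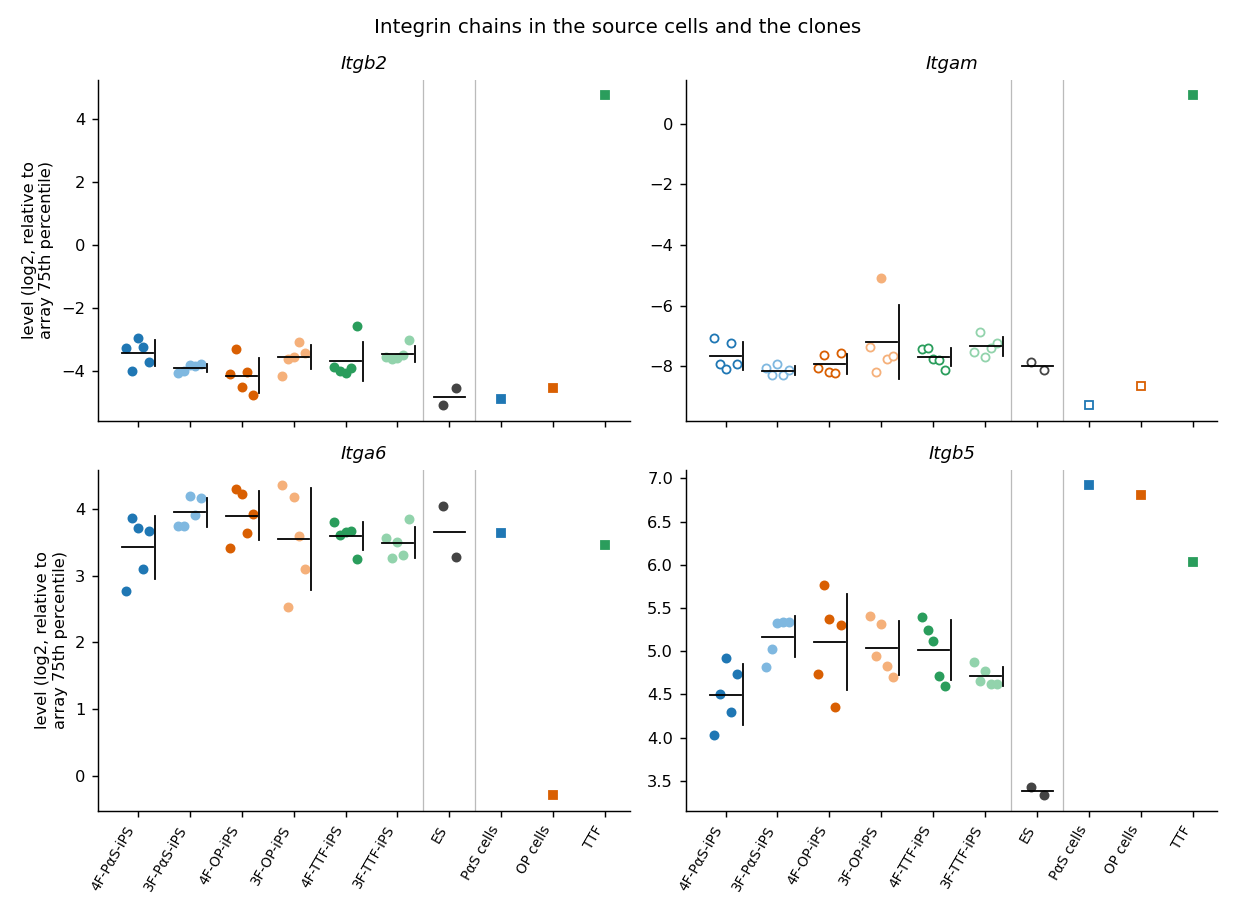
Levels of Itgb2, Itgam, Itga6 and Itgb5 on each array, on the log2 scale relative to the array's 75th percentile. Squares are the single PαS, OP and TTF source arrays, round points clones (5 per group) and the 2 ES lines, bars means and vertical lines SDs of the clone groups, with open symbols for values not well above background. The leukocyte chains Itgb2 and Itgam stand at 4.75 and 0.95 on the TTF array, and Itga6 at -0.29 on the OP array.

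The 3 source arrays differed in leukocyte integrins, and with 1 array each no test is possible. On the PαS, OP and TTF arrays Itgb2, the β2 chain of leukocyte integrins, was -4.88, -4.54 and 4.75, Itgam (the α chain of Mac-1) -9.29, -8.64 and 0.95 and Itgax (the α chain of CD11c/CD18) -8.30, -8.61 and 1.73. The TTF array was at least 282-fold above the PαS array and 172-fold above the OP array for Itgam, and at least 486-fold and 297-fold for Itgax. Itga4, the VLA-4 α chain, was -5.74, -7.81 and 0.58. The mean of 14 blood cell markers was 3.94 on that array, with 13 of the 14 above background. It was -5.42 on the PαS array (8 of 14 above background), -5.67 on the OP array (6 of 14) and from -4.46 to -3.44 in clones. The part of blood cells in the TTF levels was not tested. The call of Itgb2 as higher in source cells (2.14 ± 0.90 SE, adjusted p = 0.0415) rested on that array: without it the difference was -1.01 (adjusted p = 0.00619), and it was 3.80 (adjusted p = 0.00140) without the PαS array and 3.63 (adjusted p = 0.00304) without the OP array.

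The 2 marrow sources also differed between themselves. Itga6 was 3.63 on the PαS array and -0.29 on the OP array, with the TTF array at 3.46. The fitted fall of Itga6 from clones to source cells (-1.39 ± 0.43 SE, adjusted p = 0.00694) was -0.11 (adjusted p = 0.794) without the OP array. Itgb7 was 1.37 on the PαS and -3.47 on the OP array, and Itgb6 was at least 13.2-fold higher on the PαS array. Lama2 was higher there too, by 4.55 on the log2 scale. Itga1 and Itga10, both collagen receptor chains, were lower on the PαS than on the OP array, with differences of -2.37 and -2.90 on the log2 scale. Lamb3 was -0.47, -1.18 and -7.75, at least 70.8-fold above the TTF array in PαS cells and at least 43.4-fold in OP cells. Among the clones, by contrast, the PαS-derived ones were the lowest in Lamb3.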

How the data were processed

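Agilent 1-colour arrays were scanned and read by the authors with Feature Extraction (versions 10.5.1.1, 10.7.3.1 and 9.5.3.1 per the file headers), which gives a background-subtracted processed intensity per spot. The deposited intensity was taken to log2, outlier-marked spots (54 to 152 per array) were left out, spots of 1 probe were averaged, and each array's 75th percentile was subtracted. The authors' normalised table of log2 values, deposited for the same arrays, served as an alternative. Another was normexp background correction with an offset of 50 added to every signal, which shrinks differences of dim probes. A probe was tested where all arrays of 1 or more groups had it well above background, which left 27622 probes with 7 groups, the 6 of clones and ES, and 28300 with source cells as group 8. The groups were compared with lmFit and eBayes (limma 3.58.1, R 4.3.3), with Benjamini-Hochberg adjustment over all tested probes. A call needs an adjusted p under 0.05 and a 2-fold difference, or the adjusted p alone for differences between effects. The fits were tested on simulated data. The number of arrays limits the precision. Members, marker lists and named genes were chosen with earlier results of these data known. Named were members called in any comparison, the laminin-111 and laminin-511 chains, and integrin chains known on ES cells; each gene is given by its brightest probe. Correlations used 100000 permutations. The 10 slides lie in 3 scan sessions; slides 1 to 8 hold the clones. Clone numbers were not taken to pair samples. Over 75 same-numbered pairs the median correlation of deviations was -0.005, and 17 correlated above 0.1. No value for differently numbered pairs is given to set beside these. Leaving out the clones low in Nanog was added after seeing the data. Positions are of build mm7, as the array annotation gives them. Itgad was not analysed here. The values of 1 member are not reported here, though it is in the counts.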

Additional observations from a re-analysis of the deposited data

Results flagged for a closer look

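In groups of 5 clones, 153 groups were searched for a clone far from the rest by the ratio of its gap to the group's range (Dixon's limit 0.71). Chance alone would give about 1 in 20 groups. The 8 found are close to that share, so no excess of such clones is shown. Itgb4, the hemidesmosome β chain, was at 2.42 in 4F-TTF-iPS #5, below the next clone at 4.12, and at 2.81 in 4F-PαS-iPS #2, above 1.73. Itgb7 was at 1.05 in 4F-TTF-iPS #4, below 2.23, and at 0.865 in 3F-PαS-iPS #1, above -0.022. Itgb2 was at -2.59 in 4F-TTF-iPS #5, above -3.88, and at -3.01 in 3F-TTF-iPS #5, above -3.51. Itgae was at -1.14 in 3F-TTF-iPS #5, above -2.32. Itga5 was at 1.495 in 4F-OP-iPS #2, a clone low in Nanog, above 0.057.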

How the results depend on the processing

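The authors' table kept 72 of 73 called member results, and quantile normalization 67. Normexp background correction kept 40, and left 13 called members between clones and ES (12 higher, 1 lower, against 22 and 6), 3 between 3F- and 4F-OP-iPS (3 higher, 0 lower), 2 in TTF-iPS (1 and 1), and 0 between PαS-iPS and OP-iPS or TTF-iPS. It moved the median difference of all probes by 0.13 for PαS-iPS against OP-iPS and against TTF-iPS, by -0.24 for 3F against 4F PαS-iPS and by -0.19 for source cells, which quantile normalization moved by 0.18. Under quantile normalization 1 member was called between PαS-iPS and TTF-iPS and 1 for the difference in factor effect between them. Keeping probes above background on every array gave 2 in TTF-iPS and 16 for source cells, and keeping probes within 2-fold between ES lines gave 1 in OP-iPS, 2 in TTF-iPS, 12 for ES and 13 for source cells, with fewer probes tested. Slide as a random block gave 1 in OP-iPS, 0 in TTF-iPS and 0 between PαS-iPS and TTF-iPS, and slide as a fixed term 0 between PαS-iPS and OP-iPS. Leaving out the 3 clones with Nanog not above background gave 0 in OP-iPS, 2 in TTF-iPS and 0 for PαS-iPS against OP-iPS or TTF-iPS; the 4 clones, 0, 4, 0 and 0. The cause was not tested.

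Leaving out each array gave 3 to 7 calls for 3F against 4F in OP-iPS (3 without 4F-OP-iPS #1), 0 to 2 in PαS-iPS (2 without 4F-PαS-iPS #3 or #5), and 0 to 7 in TTF-iPS (0 without 4F #2 or 3F #4, 1 without 4F #1 or 3F #5, 2 without 4F #4, 3F #2 or #3, 3 without 3F #1). It gave 0 to 9 for PαS-iPS against OP-iPS (9 without 4F-OP-iPS #2, 5 without 4F-OP-iPS #4, 4 without 3F-OP-iPS #2, 0 without 3F-PαS-iPS #3, 4F-OP-iPS #1 or #3 or 3F-OP-iPS #1), 0 to 3 for PαS-iPS against TTF-iPS (0 without 4F-PαS-iPS #5, 4F-TTF-iPS #1 or #4 or 3F-TTF-iPS #1) and 0 to 2 for OP-iPS against TTF-iPS (2 without 4F-OP-iPS #2). For the differences in factor effect it gave 0 to 5 for PαS-iPS and OP-iPS (5 without 4F-OP-iPS #4, 2 without 3F-OP-iPS #1), 0 to 3 for PαS-iPS and TTF-iPS (3 without 4F-TTF-iPS #5, 1 without 4F-PαS-iPS #2 or 4F-OP-iPS #2) and 0 to 0 for OP-iPS and TTF-iPS. For ES it gave 18 to 30 (18 without EB-3) and for source cells 22 to 29. Pearson's r ranged from 0.9513 to 0.9667 for Lama1 and Lamb1-1, 0.9706 to 0.9801 for Lama1 and Lamc1, 0.9394 to 0.9577 for Lamb1-1 and Lamc1, -0.5187 to -0.4085 for Lama5 and Lamc1 and 0.1589 to 0.3924 for Itga6 and Itgb1. With clones centred on their group, Lama5 and Lamc1 gave -0.4978 (permutation p = 0.0557).

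Signs that turned were Itga1 in OP-iPS on another probe (-0.1274), Lamc3 between PαS-iPS and TTF-iPS under normexp (0.1628), Itga1 against ES on a dimmer probe without RF8 (0.03327, range over the arrays left out -2.769 to 0.03327), Itgb3 against ES on another probe (-1.097), and, in source cells, Itga6 on another probe without the OP array (-1.879 to 0.02855), Itga7 on another probe without the TTF array (-1.902 to 0.2074) and Itgb2 without the TTF array (-1.014 to 3.8). Clone numbers were not taken to pair samples. With the replicate number as a block, 6 members were called in OP-iPS, 6 in TTF-iPS, and 1 and 3 for PαS-iPS against OP-iPS and TTF-iPS. That setting gave 29 for ES and 24 for source cells. Dim probes limit what could be tested: 6 genes had no testable brightest probe among clones and ES cells.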
